A study of Mus musculus with 18 samples.

Results

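The imprinted growth gene network is a set of 10 genes that are read mainly from 1 parental copy in the mouse: Igf2, H19, Dlk1, Meg3, Cdkn1c, Plagl1, Mest, Peg3, Grb10 and Igf2r. They were chosen by name, and each was 1 row of a table of 31165 genes measured in 18 newborn livers. All 10 had a mean above 10 and were among the 14104 genes tested. The livers came from C57BL/6J mice that had been given a chemically stabilized mimic of miR-497a-5p, or an inert scrambled mimic, by intraperitoneal injection at P1 (the day they were born) and at P3. Doses of 10 and 100 mg/kg are described for the study, and the labels of the livers do not say which of them a liver received. Livers were taken at P5, P7 and P14, which gave 3 mimic and 3 scrambled libraries on each day and 6 groups in all. All livers were injected, so no uninjected liver served as a baseline. The labels do not say which livers came from the same litter, and p-values measure the spread between these livers.

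In genomic imprinting a gene is silenced on the copy inherited from 1 parent, marked by DNA methylation laid down in the egg or sperm. In this network the copy from the father is the active one for Igf2, Dlk1, Plagl1, Mest and Peg3, and the copy from the mother for H19, Meg3, Cdkn1c and Igf2r. Grb10 is active from the mother's copy in most tissues. Many imprinted genes active from the father's copy favour growth before and just after birth and many active from the mother's copy restrain it, and the network is switched down in many organs as growth slows after birth. Igf2 is a growth factor of the fetus, and Igf2r a receptor that takes it up for destruction. Grb10 is an adaptor that dampens insulin and IGF receptor signalling, and Cdkn1c an inhibitor of the cell cycle. The libraries measured the RNA of both copies together, so that a level here is a total and says nothing of the copy it came from.

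The level of a gene is given as a scaled count, the authors' read count after division by a factor for the library and rounding. Scaled counts of different genes are compared only per kilobase of each gene's longest transcript. Libraries summed to between 3954405 and 4248257 scaled counts, and the low values placed the reads behind them at 3006551 to 5322999 per library. Hepatocyte markers, 7 genes, summed to 10434 to 16592 scaled counts over the 18 libraries, none of them at 0 in a whole group. The scrambled libraries 2 and 3 of P7 stood apart. Genes that are silent in liver averaged 3.08 scaled counts per kb in P7 scrambled 3 and 0.168 in P7 scrambled 2, against 0.0113 to 0.0260 in the other 16 libraries, from which these genes were chosen as silent, so that the low values there were fixed by the choice. In P7 scrambled 3 that level over the length of Meg3 would make 44.8 of its 354 scaled counts, which is 12.6%, and for the other members it was at most 4.15%. A set of 5 muscle markers summed to 2, 2 and 4 scaled counts in P7 mimic livers 1, 2 and 3, against 1452, 20 and 366 in P7 scrambled livers 1, 2 and 3, so that the highest muscle sum was in P7 scrambled 1. Ttn alone made 159, 14 and 301 of the sums in P7 scrambled livers 1, 2 and 3.

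H19 and Igf2 were the most abundant members, and for H19 the value barely moved between libraries. H19 encodes a long noncoding RNA (ENSMUSG00000000031, chr7:142575558-142578120, minus strand, mm10), and its estimated read number was 1947 ± 28.1 per library (SD, n = 18), between 1885 and 1996. Its coefficient of variation in estimated reads was 1.44%, below the 2.27% that counting that many reads would give by itself. Across the 18 libraries the scaled count of H19 followed the worth of 1 read with r = 0.997, a description over libraries that share the same scale. Alb, the main blood protein made by hepatocytes, did the same at 2091 ± 32.6 estimated reads (SD, n = 18), with a coefficient of variation of 1.56%. The ratio of H19 to Alb was 0.931 ± 0.012 over all 18 libraries (SD), between 0.907 and 0.954. The scaled count of H19 in a library was therefore close to a restatement of that library's scale, and its differences between groups are given below as measured, with this limit.

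Igf2 (ENSMUSG00000048583, chr7:142650766-142666816, minus strand) was also above 0.5 reads per base of transcript, at 0.701, but its reads varied more than those of H19. Estimated reads of Igf2 were 3311 ± 305 per library (SD, n = 18), between 2642 and 3816, with a coefficient of variation of 9.22% against 1.74% from counting. Its ratio to Alb ran between 1.46 and 1.65 in P5 livers, between 1.65 and 1.79 in P7 livers and between 1.27 and 1.57 in P14 livers, so that every P7 liver lay above every liver of the other days. This ratio is a description and was not tested. Estimated reads of Alb barely varied, so the ratio follows the reads of Igf2 and leaves the depth of the library in. Libraries held 3006551 to 4727604 reads at P5, 3941824 to 5322999 at P7 and 3674094 to 4350788 at P14. In scaled counts Igf2 differed by -0.04 on the log2 scale at P7 against P5. The table held 202 genes past that mark of 0.5, and for 25 of these the variance of reads over libraries was below their mean. The other 8 members lay between 0.022 reads per base for Meg3 and 0.353 for Cdkn1c, and their reads varied by 18.9% for Cdkn1c to 64.8% for Dlk1. None of the 8 met the abundance flag.

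**Figure D1:**
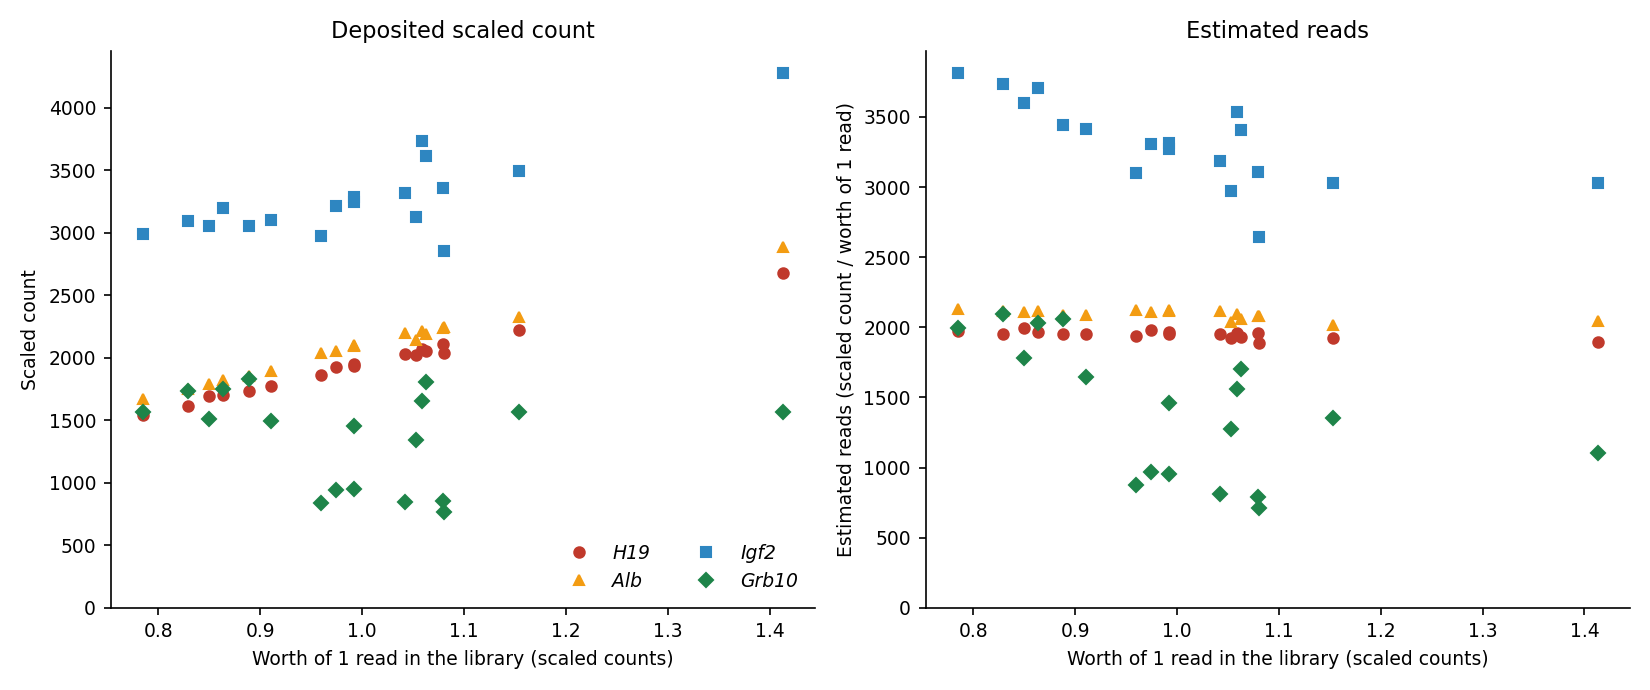
Scaled counts (left, y axis) and estimated reads (right, y axis) of H19, Alb, Igf2 and Grb10 against the worth of 1 read in the library, in scaled counts (x axis), with 1 point for each of the 18 libraries. On the right H19 lies in a flat band from 1885 to 1996 reads beside Alb, while Igf2 spreads from 2642 to 3816 and Grb10 varies widely.

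Between P5 and P14 Dlk1 and Meg3 lost most of their RNA, and Grb10, Mest, Plagl1, Cdkn1c and Peg3 fell by smaller amounts. Igf2, H19 and Igf2r did not pass. For H19 the scaled count follows the library's scale and can show little change, and Igf2 passed as lower, at -0.32, with quantile normalization. Igf2 is above the abundance flag too, and its scaled count followed the worth of 1 read with r = 0.783. Whether this hides a change of Igf2 with age was not tested. Each day held 6 libraries, 3 of each injection, and livers of a later day were compared with livers of an earlier one across both injections with limma, a linear model on log2(scaled count + 1), with Benjamini-Hochberg adjustment over 14104 genes. At P14 against P5, 7 of 10 members were lower and 0 higher at an adjusted p under 0.05, and of all genes tested 24.8% were lower and 23.9% higher. The median of the 10 log2 differences was -0.49, beside 0.01 over all genes tested. At P14 against P7, 8 of 10 members were lower, Igf2r being the added one, and of all genes 26.3% were lower and 24% higher. At P7 against P5 only Igf2r differed, being higher, and of all genes 13.2% were lower and 13.7% higher. Both later comparisons use the same P14 livers.

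**Figure D2:**
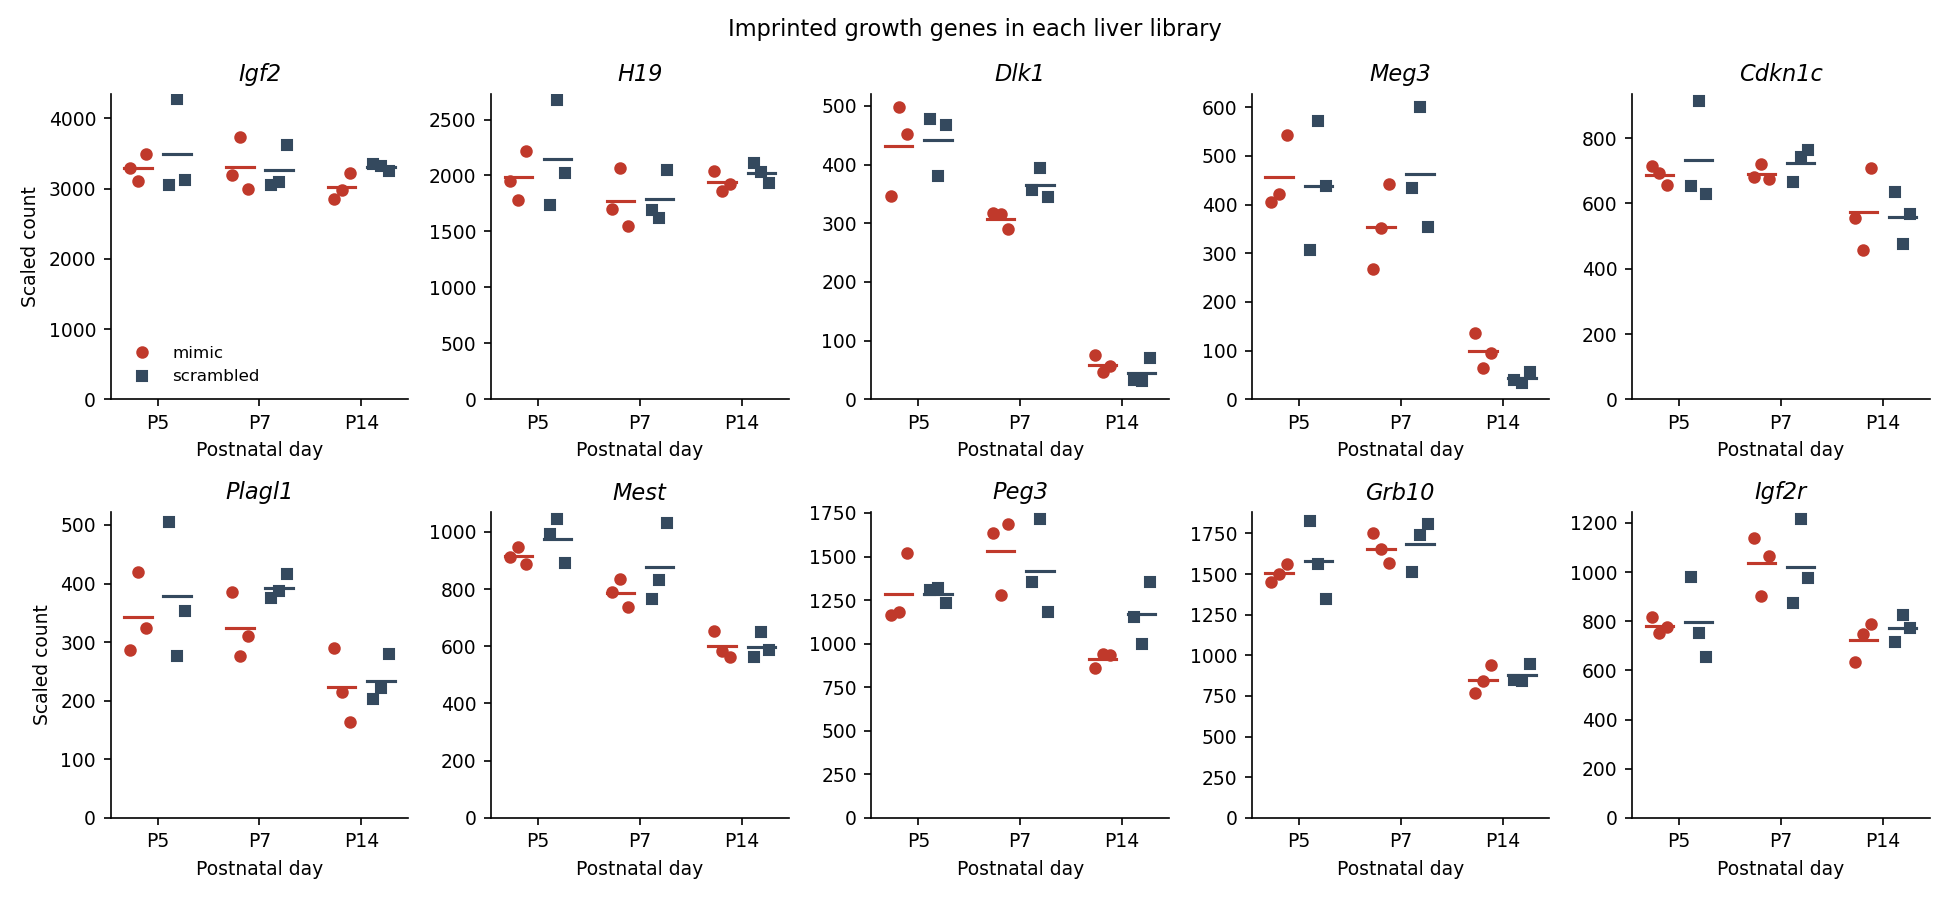
Scaled counts (y axis) of the 10 members in each of the 18 libraries at P5, P7 and P14 (x axis), with mimic livers left of scrambled livers on each day; points are libraries and short lines are group means. Dlk1 and Meg3 drop to P14 means of 52.2 and 70.8, while Igf2 averages 3162 and H19 1984 there.

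Dlk1 and Meg3 sit in 1 imprinted domain of chromosome 12 and fell together. Dlk1 (ENSMUSG00000040856, chr12:109452849-109463336, plus strand) encodes a Notch-like membrane protein of fetal and progenitor cells, hepatoblasts included, and Meg3 (ENSMUSG00000021268, chr12:109541005-109571726, plus strand) is a long noncoding RNA read from the other parental copy, starting 88.2 kb away. Dlk1 had 347 to 498 scaled counts in P5 livers with a median of 460.0, 290 to 395 in P7 livers with a median of 332, and 32 to 75 in P14 livers with a median of 51.0. The P14 range lay far below the other days in every liver. At P14 the log2 difference of Dlk1 was -3.11 ± 0.16 against P5 (SE, adjusted p = 2.54e-11) and -2.74 ± 0.16 against P7 (SE, adjusted p = 3.11e-10), while P7 against P5 gave -0.37 ± 0.16 (SE, adjusted p = 0.0961).

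Meg3 had 306 to 571 scaled counts in P5 livers with a median of 430, 267 to 600 in P7 livers with a median of 394, and 34 to 136 in P14 livers with a median of 60.5. At P14 its log2 difference was -2.78 ± 0.19 against P5 (SE, adjusted p = 1.32e-09) and -2.63 ± 0.19 against P7 (SE, adjusted p = 5.39e-09). P7 and P5 overlapped, at -0.15 ± 0.19 (SE, adjusted p = 0.594). Rian, the next noncoding RNA of the same domain, fell with them, by 2.45 on the log2 scale at P14 against P5 (SE 0.12, adjusted p = 7.9e-12), with 85 to 140 scaled counts in P14 livers and 426 to 623 in P5 livers. Mirg, further along the domain, fell by 3.11 (adjusted p = 1.34e-07). Not every gene of the domain fell. Dio3, at its far end and chosen after its values were seen, was higher at P14 against P5, by 0.69 (adjusted p = 0.0182). Its counts were low and overlapped, at 15 to 34 in P5 livers and 20 to 74 in P14 livers.

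Because the 2 genes moved together, the windows from 250 bases before to 50 after their starts are shown, from RefSeq on GRCm38.p6, plus strand. Windows were searched on both strands for GGGCGG, the GC box, and TATAAA, the TATA box, and capitals in the Meg3 window mark TATAAA and its reverse complement, which overlap there.
Dlk1, chr12:109452573-109452872: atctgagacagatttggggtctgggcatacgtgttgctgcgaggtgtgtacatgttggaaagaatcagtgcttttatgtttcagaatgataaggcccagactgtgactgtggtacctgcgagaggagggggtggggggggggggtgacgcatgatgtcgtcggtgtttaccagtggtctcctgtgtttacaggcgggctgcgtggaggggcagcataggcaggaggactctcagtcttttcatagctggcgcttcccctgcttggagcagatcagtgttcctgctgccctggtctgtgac
Meg3, chr12:109540746-109541045: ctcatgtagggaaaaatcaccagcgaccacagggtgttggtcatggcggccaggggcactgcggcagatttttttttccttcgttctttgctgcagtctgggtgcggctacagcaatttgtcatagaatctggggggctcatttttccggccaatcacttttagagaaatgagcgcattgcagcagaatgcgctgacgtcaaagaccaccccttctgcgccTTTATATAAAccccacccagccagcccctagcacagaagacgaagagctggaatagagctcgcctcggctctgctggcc
The Dlk1 window held neither motif and 9 CpG dinucleotides, and the Meg3 window shown held TATAAA, no GC box and 13 CpG. Another Meg3 entry, chr12:109545148-109545447, is not shown and held neither motif and 1 CpG. Of 32851 promoters of the same length 35.7% held GGGCGG and 13.6% held TATAAA, and the median promoter had 7 CpG. A match or its absence is a description of these letters. Entries were found for 8 of the 10 members.

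Red cell precursors leave the liver as blood formation moves to the bone marrow, and their markers moved along the same days. The 8 markers, among them Alas2 and Klf1, summed to 7305 to 10244 scaled counts in P5 mimic livers and 8349 to 9134 in P5 scrambled livers, to 6090 to 7926 in P7 mimic and 5112 to 8154 in P7 scrambled livers, and to 1131 to 1606 in P14 mimic and 637 to 1082 in P14 scrambled livers. All 8 fell at P14 against P5, with a median log2 difference of -4.58, and no marker was at 0 in a whole group. All 5 neutrophil precursor markers and all 4 megakaryocyte markers fell too, with medians of -2.48 and -1.67. Both hepatoblast markers matched by symbol, Afp and Gpc3, fell, with a median of -0.64. Their part in the fall of Dlk1 and Meg3 was not tested. In bulk liver, fewer cells of a type and less RNA per cell cannot be told apart.

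**Figure D3:**
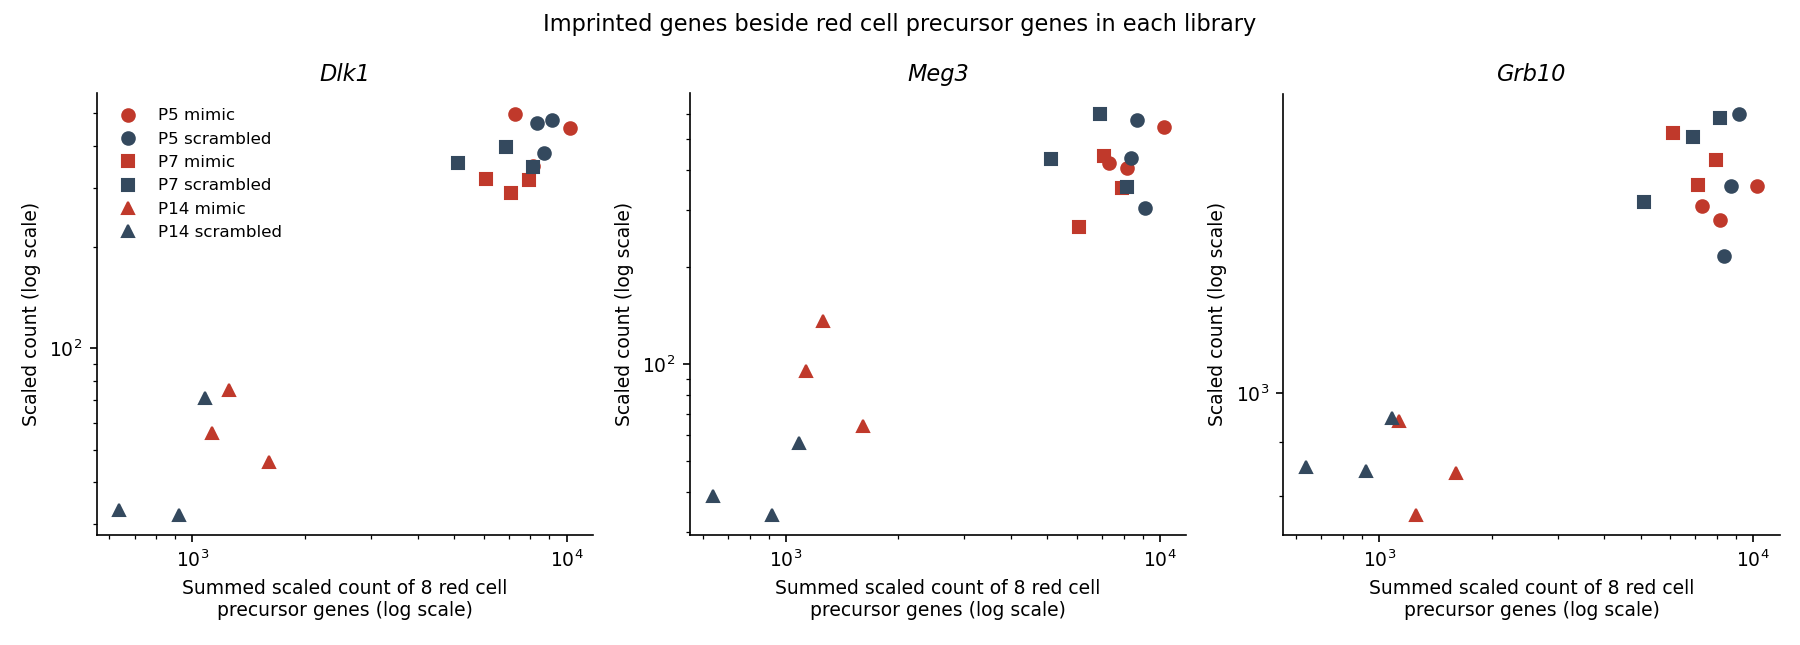
Scaled count (y axis, log scale) of Dlk1, Meg3 and Grb10, 1 panel each, against the summed scaled count of the 8 red cell precursor markers (x axis, log scale) in the 18 libraries, by day and injection. P14 livers lie at the lower end of both axes in all panels, with marker sums of 1131 to 1606 in mimic livers and 637 to 1082 in scrambled livers.

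Grb10, Cdkn1c and Igf2r restrain growth by different routes, and of the 3 Grb10 fell by the largest step at P14 against P5. Grb10 (ENSMUSG00000020176, chr11:11930508-12037401, minus strand) had 1345 to 1829 scaled counts in P5 livers, 1512 to 1811 in P7 livers and 768 to 947 in P14 livers, with medians of 1532, 1696 and 848. No P14 liver reached the range of the earlier days, and the log2 difference at P14 was -0.83 ± 0.07 against P5 (SE, adjusted p = 3.46e-08) and -0.95 ± 0.07 against P7 (SE, adjusted p = 1.16e-08). Cdkn1c (ENSMUSG00000037664, chr7:143458339-143461050, minus strand), 794 kb from Igf2 between starts, had 629 to 914 scaled counts in P5 livers with a median of 674, 667 to 764 in P7 livers with a median of 701, and 458 to 709 in P14 livers with a median of 563. The ranges overlapped, and at P14 Cdkn1c differed by -0.33 ± 0.10 against P5 (SE, adjusted p = 0.0137) and by -0.33 ± 0.10 against P7 (SE, adjusted p = 0.0125). Without P7 scrambled 2 and 3 the difference between P14 and P7 was -0.28, with an adjusted p of 0.12.

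Igf2r (ENSMUSG00000023830, chr17:12682406-12769664, minus strand) was the member that rose and then fell. It had 656 to 978 scaled counts in P5 livers with a median of 764, 874 to 1215 in P7 livers with a median of 1021, and 632 to 826 in P14 livers with a median of 760.0. P7 livers stood above P14 livers with no overlap, and overlapped with P5 livers at 1 end. The log2 difference was 0.38 ± 0.10 at P7 against P5 (SE, adjusted p = 0.0105), -0.46 ± 0.10 at P14 against P7 (SE, adjusted p = 0.000911) and -0.07 ± 0.10 at P14 against P5 (SE, adjusted p = 0.570). Libraries differed in how values moved with transcript length, with rank correlations from -0.352 to 0.485, and with a term for that slope in the fit Igf2r differed by 0.05 at P7 against P5 (adjusted p = 0.922) and by -0.16 at P14 against P7 (adjusted p = 0.310). Without P7 scrambled 2 and 3 the P7 against P5 difference was 0.28, with an adjusted p of 0.109.

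Plagl1, Mest and Peg3, active from the father's copy, all fell by P14. Mest (ENSMUSG00000051855, chr6:30733506-30748465, plus strand) encodes an enzyme-like protein of the hydrolase fold and had 888 to 1045 scaled counts in P5 livers with a median of 929, 738 to 1029 in P7 livers with a median of 811, and 561 to 654 in P14 livers with a median of 584. At P14 Mest lay below every earlier liver, at -0.66 ± 0.07 against P5 (SE, adjusted p = 4.42e-07) and -0.47 ± 0.07 against P7 (SE, adjusted p = 4.22e-05). Plagl1 (ENSMUSG00000019817, chr10:13090788-13131694, plus strand), a zinc finger transcription factor, had 277 to 505 scaled counts in P5 livers with a median of 339, 276 to 417 in P7 livers with a median of 381, and 163 to 290 in P14 livers with a median of 218. Its ranges overlapped between days, and the log2 difference at P14 was -0.65 ± 0.15 against P5 (SE, adjusted p = 0.00141) and -0.66 ± 0.15 against P7 (SE, adjusted p = 0.00153). Peg3 (ENSMUSG00000002265, chr7:6703892-6730421, minus strand), another zinc finger protein, had 1162 to 1519 scaled counts in P5 livers with a median of 1270.0, 1181 to 1713 in P7 livers with a median of 1495, and 861 to 1356 in P14 livers with a median of 967.

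Peg3 differed by -0.32 ± 0.10 at P14 against P5 (SE, adjusted p = 0.0121) and by -0.51 ± 0.10 at P14 against P7 (SE, adjusted p = 0.000435). The ranges of the days overlapped. With the length slope as a term the P14 against P7 differences were -0.24 for Plagl1 (adjusted p = 0.366) and -0.31 for Peg3 (adjusted p = 0.110), so that 5 of the 8 members lower at P14 against P7 passed. The 7 members lower at P14 against P5 passed under every setting tried. P7 against P5 gave -0.19 ± 0.07 for Mest (SE, adjusted p = 0.0564), 0.12 ± 0.07 for Grb10 (SE, adjusted p = 0.236) and 0.19 ± 0.10 for Peg3 (SE, adjusted p = 0.166). Cdkn1c and Plagl1 differed by 0.01 each between P7 and P5, with an adjusted p of 0.969 for both.

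Igf2 and H19 lie side by side on chromosome 7, with starts 88.7 kb apart, and share 1 control region in the mouse. Igf2 had 3057 to 4282 scaled counts in P5 livers with a median of 3206, 2994 to 3739 in P7 livers with a median of 3148, and 2853 to 3356 in P14 livers with a median of 3231. All 3 days overlapped, and Igf2 differed by -0.09 at P14 against P5 (adjusted p = 0.366), by -0.05 at P14 against P7 (adjusted p = 0.621) and by -0.04 at P7 against P5 (SE 0.08, adjusted p = 0.732). H19 had 1733 to 2676 scaled counts in P5 livers with a median of 1989, 1547 to 2071 in P7 livers with a median of 1698, and 1860 to 2113 in P14 livers with a median of 1983. It differed by -0.04 at P14 against P5 (adjusted p = 0.746), by 0.16 at P14 against P7 (adjusted p = 0.169) and by -0.21 at P7 against P5 (SE 0.10, adjusted p = 0.118). Both genes are above the abundance flag, so these differences do not show that their RNA was steady. With quantile normalization Igf2 passed at P14 against P5, at -0.32 (adjusted p = 0.000781), and at P7 against P5 both passed, Igf2 at -0.32 (adjusted p = 0.00424) and H19 at -0.24 (adjusted p = 0.0162). Afp, the fetal counterpart of albumin and also above the abundance flag, averaged 2161 ± 328 scaled counts in P5 livers, 1855 ± 230 in P7 livers and 1364 ± 216 in P14 livers (SD, n = 6 each).

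**Figure D4:**
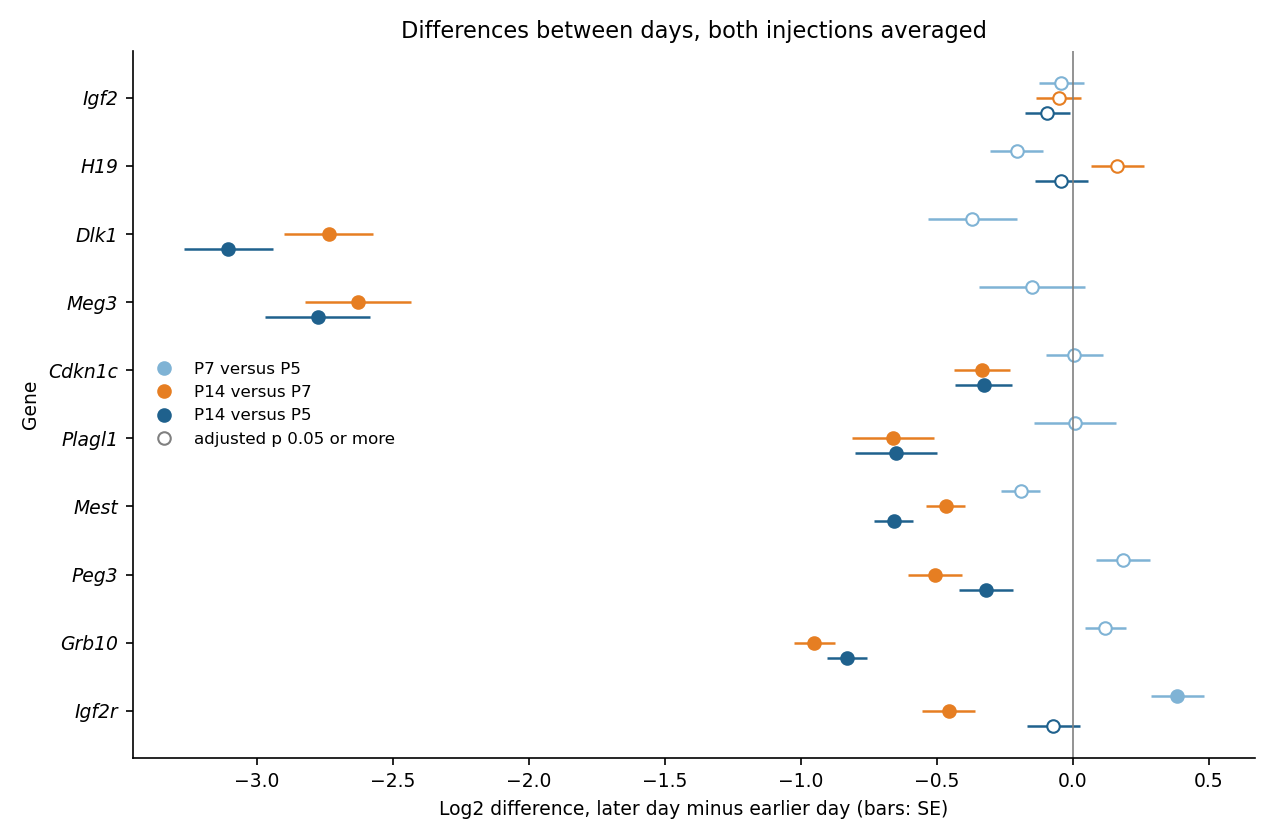
Log2 differences with SE (x axis) of the 10 members (rows) at P7 against P5, P14 against P7 and P14 against P5; filled points passed an adjusted p under 0.05. Dlk1 and Meg3 lie at -3.11 and -2.78 for P14 against P5, and Igf2, H19 and Igf2r lie at -0.09, -0.04 and -0.07.

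Per kilobase, H19 and Igf2 led on each day and Meg3 came last. H19 and Igf2 are above the abundance flag, and H19 nearly restates the library's scale. How far they stand above the other members is therefore not read as a ratio of RNA. The same limit holds beside Alb, also flagged, which averaged 1083 per kb in P5 livers. In P5 livers H19 averaged 903 scaled counts per kb and Igf2 718, with overlapping ranges, followed by Cdkn1c at 373, Mest at 355 and Grb10 at 305, neighbours that overlapped. Peg3 followed at 148, then Dlk1 at 93.9, Igf2r at 88.7 and Plagl1 at 68.6, each overlapping with the next, and Meg3 was last at 30.8. In P14 livers Cdkn1c averaged 298 and Mest 225, with overlapping ranges, and Dlk1 had dropped to 11.2 and Meg3 to 4.87, also overlapping. Igf2r at 84.0 and Plagl1 at 43.4 per kb lay above Dlk1 at P14. The last place of Meg3 rests on division by its longest transcript, of 14548 bases, the longest among the members. Which Meg3 transcripts were present was not tested.

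Correlations between libraries of the same group were taken for 3 pairs of members. H19 and Igf2, after removal of group means, correlated over 18 libraries with Pearson's r = 0.906 (permutation p = 0.0022, adjusted 0.0066 over 3 pairs) and Spearman's rho = 0.843 (permutation p = 0.00255, adjusted 0.00765), two-sided. Without P5 scrambled 2 and P7 mimic 2, the libraries farthest from the median, r was 0.824. Beside this, the scaled counts of both followed the worth of 1 read over libraries, with r = 0.997 for H19 and 0.783 for Igf2. Because H19 nearly restates the library's scale, the permutation p cannot tell a link between H19 and Igf2 from the scale they share. Meg3 and Dlk1 gave r = 0.490 (permutation p = 0.0924, adjusted 0.139) and rho = 0.406 (permutation p = 0.166, adjusted 0.249), and r = 0.337 without P14 mimic 1 and 2. Igf2r and Igf2 gave r = -0.191 (permutation p = 0.688, adjusted 0.688) and rho = -0.069 (permutation p = 0.844, adjusted 0.844), and r = 0.071 without P5 scrambled 1 and P7 scrambled 2.

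Genes with the most similar pattern over the 18 libraries, taken by Pearson's r on log2 values as a description, followed each member's course. For Dlk1 they were Ehbp1l1 at r = 0.986, Nfe2 at 0.985 and Tmod1 at 0.985, and for Meg3 they were Ypel4 at 0.969, Kel at 0.965 and Rian at 0.964. Nfe2 is a transcription factor of red cell and platelet precursors, and Kel a red cell surface protein. For Grb10 they were Top2a at 0.977, Hip1r at 0.972 and Sema4d at 0.972. For Mest they were Stxbp2 at 0.946, Pstpip1 at 0.944 and Ms4a3 at 0.943, and for Plagl1 Basp1 at 0.938, Themis2 at 0.910 and Armcx2 at 0.907. H19 had Eef1a1, Alb and Ambp at 0.995 each, all very abundant genes, and Igf2 had Lbp at 0.945, Itih3 at 0.942 and Psap at 0.917. Igf2r had Pds5a, Zfp568 and Cnot1 at 0.948 each, Peg3 had Ikbkap at 0.883, Npnt at 0.869 and Akap13 at 0.866, and Cdkn1c had Pgd at 0.853, CT030173.1 at 0.847 and Arhgef1 at 0.846. All of these share the 3 days and the scale of each library.

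Of 41 tested genes of a list of 49 other imprinted genes, 10 were lower and 10 higher at P14 against P5, close to the 24.8% lower and 23.9% higher of all genes tested, with a median log2 difference of -0.01 beside 0.01 over all genes. Phlda2, a maternal-copy brake on placental growth, fell by 4.22 (SE 0.41, adjusted p = 8.98e-08), Zim1 fell by 2.16 (adjusted p = 2.36e-08) and Peg10 fell by 1.95 (adjusted p = 1.13e-09). Gatm, a creatine synthesis enzyme, fell by 0.59 (adjusted p = 1.38e-07). Slc22a3, an organic cation carrier beside Igf2r, rose by 2.79 (SE 0.32, adjusted p = 7.38e-07), and Ddc, beside Grb10, rose by 0.51 (adjusted p = 0.000515).

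The IGF genes around the network changed in both directions at P14 against P5. Of 18 tested, 4 were lower and 10 higher, beside 24.8% lower and 23.9% higher of all genes, with a median of 0.30. Igf1, the growth hormone-driven ligand that takes over after birth, rose by 0.94 (SE 0.08, adjusted p = 3.67e-08), and Ghr, the growth hormone receptor, rose by 0.71 (adjusted p = 2.76e-07). Igfbp5 rose by 1.98 (adjusted p = 4.21e-05) and Grb14, a relative of Grb10, by 0.31 (adjusted p = 0.00017). Igf1r, the receptor through which Igf2 signals, fell by 0.80 (adjusted p = 1.3e-05), and the mRNA-binding proteins Igf2bp1, Igf2bp2 and Igf2bp3 differed by -3.68, -1.30 and -0.42 (adjusted p = 2.19e-08, 1.61e-06 and 0.000136), all lower at P14. Zbtb20 and Zhx2 repress Afp in mouse liver, and Zhx2 represses H19 too. Zbtb20 rose by 1.21 (adjusted p = 5.67e-07) and Zhx2 by 1.08 (adjusted p = 8.94e-06). Of 12 tested genes of imprint maintenance and these repressors, 4 were lower and 2 higher, beside the same shares of all genes: Dnmt1 and Uhrf1, which copy DNA methylation at replication, differed by -1.29 (adjusted p = 7.6e-08) and -1.59 (adjusted p = 9.01e-09), Ctcf by -0.35 (adjusted p = 0.000106) and Dnmt3a by -0.27 (adjusted p = 0.0197). Trim28 at -0.14 (adjusted p = 0.0651) and Zfp568 at -0.15 (adjusted p = 0.243) did not pass. All 14 cell cycle markers fell, with a median of -1.14, among them Mki67 at -1.76 (adjusted p = 8.96e-10), Cenpf at -1.52 (adjusted p = 9.6e-09) and Rrm2 at -1.17 (adjusted p = 2.38e-09).

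The mimic comparison asked whether added miR-497a-5p alters its candidate target mRNAs in the liver. miR-497a-5p (chr11:70234730-70234751, plus strand, GRCm38.p6) belongs to the miR-15/16 family, whose members share the seed at bases 2 to 8, shown in capitals. The seed is what pairs with a target, and the miRNA sequences are from RefSeq. The 5 family members shown are among 10 mature names that share it.
mmu-miR-497a-5p: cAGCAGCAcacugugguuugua
mmu-miR-195a-5p: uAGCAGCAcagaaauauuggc
mmu-miR-15a-5p: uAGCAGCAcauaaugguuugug
mmu-miR-16-5p: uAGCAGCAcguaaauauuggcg
mmu-miR-322-5p: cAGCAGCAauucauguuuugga
The match searched, on the sense strand, was TGCTGCT, or GCTGCTA, in which an A stands opposite the first base of the miRNA. Of 13204 tested genes with a 3′ UTR, 26.9% held TGCTGCT and 30.7% held either. The 3′ UTRs of Igf2 and Plagl1 held a match and those of Dlk1, Cdkn1c, Mest, Peg3 and Grb10 held none; H19 held 1 and Meg3 4 in the whole noncoding transcript. The transcripts searched were those of GENCODE M21, among them Igf2-201, Plagl1-202, H19-202 and Meg3-209. The sites below, with capitals on the match, are those the mimic values are read beside, with positions counted from the start of the 3′ UTR or, for H19 and Meg3, of the transcript.
Igf2, 1026 to 1032: catctagtttcTGCTGCTgcttattggctc
Igf2, 1058 to 1064: atgtgtgaccagGCTGCTAgttctgtcttt
Plagl1, 339 to 345: tccaaaacatgaGCTGCTAttttgtaaata
H19, 1523 to 1529: taacacttctcTGCTGCTctctggatcctc
Meg3, 6336 to 6343: gagggtggggcTGCTGCTAcctgagttgct
Igf2 held a second match that overlaps the first, at 1029 to 1035. A match is a description of these letters and not a site shown to be used.

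No member passed in any mimic comparison. Of all genes tested, 0% passed at P5 (0 of 14104, 266 at an unadjusted p under 0.05), 0.00709% at P7 (1 gene, 1073 unadjusted), 0.0213% at P14 (3 genes, 763 unadjusted) and 0.00709% over the 3 days (1 gene, 457 unadjusted), by limma. The share whose 3 mimic values all lay on 1 side of the 3 scrambled values came to 5.01% for P5, 14% for P7 and 9.31% for P14. Of the members, 0 of 10 were so separated at P5, Dlk1 was at P7, and Meg3, Igf2 and Peg3 were at P14. The median of the members' log2 differences, mimic against scrambled, came to -0.06 in P5 livers, -0.04 in P7 livers and -0.06 in P14 livers, beside -0.01, -0.00 and 0.00 over all genes.

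**Figure D5:**
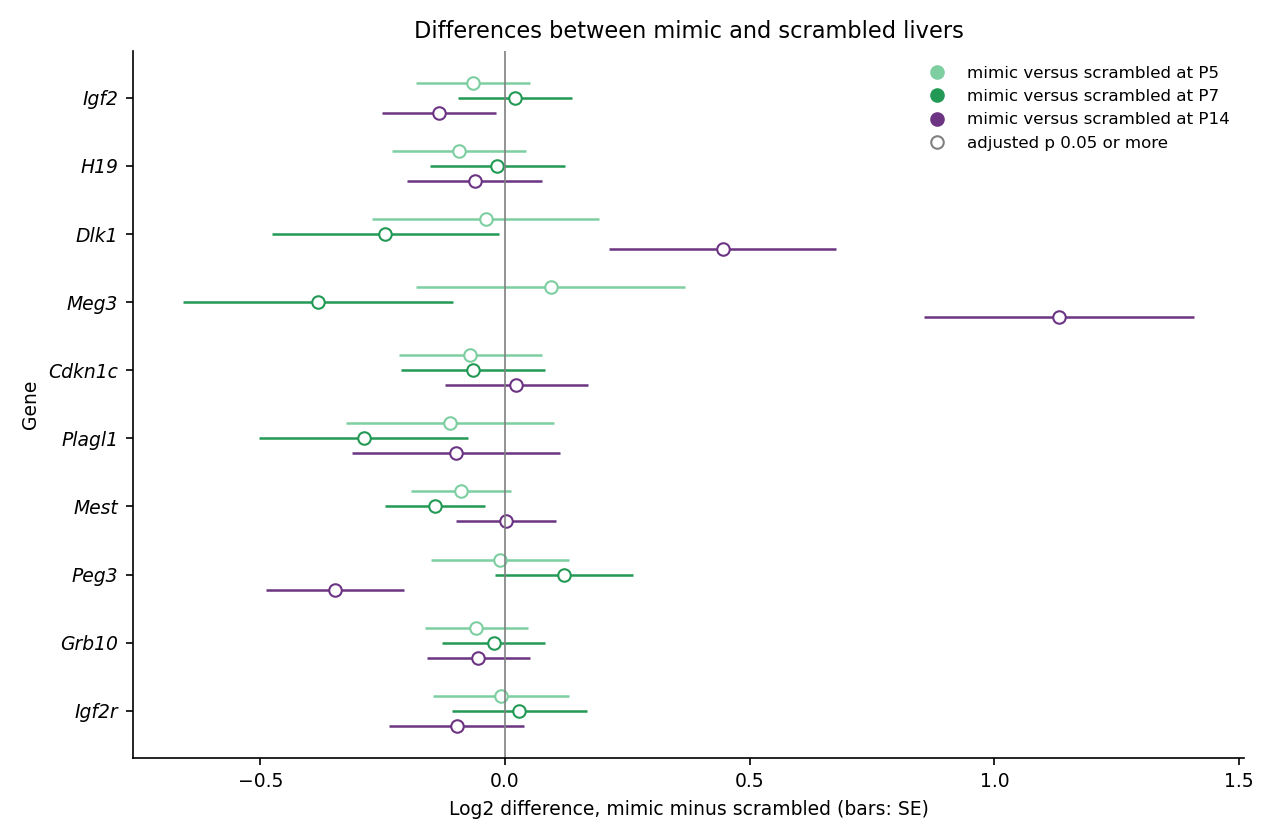
Log2 differences with SE (x axis), mimic over scrambled, of the 10 members (rows) at P5, P7 and P14; all points are open because none passed an adjusted p under 0.05. Meg3 at P14 lies farthest from 0, at 1.13.

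Igf2, Plagl1, H19 and Meg3, whose RNA holds a seed match, did not pass, nor did Igf2r. Igf2 had 3286, 3107 and 3493 scaled counts in P5 mimic livers, against 3057, 4282 and 3126 in P5 scrambled livers, and 3199, 3739 and 2994 in P7 mimic livers, against 3057, 3097 and 3619 in P7 scrambled livers. In P14 livers it had 2853, 2977 and 3218 with the mimic, against 3356, 3322 and 3244 with scrambled. The groups did not overlap at P14, where the difference was -0.13 ± 0.12 (SE), and turned to 0.13 with quantile normalization. Over the 3 days Igf2 differed by -0.06, H19 by -0.06 and Igf2r by -0.03, each with an adjusted p of 1.00.

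Plagl1 had 287, 420 and 324 scaled counts in P5 mimic livers, against 505, 277 and 353 in P5 scrambled livers, and 386, 276 and 311 in P7 mimic livers, against 375, 387 and 417 in P7 scrambled livers. In P14 livers it had 290, 215 and 163 with the mimic, against 203, 221 and 279 with scrambled. The groups overlapped on each day, with a difference of -0.29 ± 0.21 (SE) at P7 and -0.17 ± 0.12 (SE) over the 3 days. Igf2r had 816, 751 and 775 scaled counts in P5 mimic livers, against 978, 753 and 656 in P5 scrambled livers, and 1140, 903 and 1067 in P7 mimic livers, against 874, 1215 and 974 in P7 scrambled livers. In P14 livers it had 632, 746 and 789 with the mimic, against 714, 826 and 774 with scrambled, again with overlapping groups.

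H19, Cdkn1c and Grb10 overlapped between mimic and scrambled livers. H19 had 1953, 1779 and 2222 scaled counts in P5 mimic livers, against 1733, 2676 and 2024 in P5 scrambled livers, 1700, 2071 and 1547 in P7 mimic livers, against 1696, 1617 and 2053 in P7 scrambled livers, and 2036, 1860 and 1928 in P14 mimic livers, against 2113, 2032 and 1934 in P14 scrambled livers. Cdkn1c had 655 to 714 scaled counts in P5 mimic livers, against 629 to 914 in P5 scrambled livers, 674 to 721 in P7 mimic livers, against 667 to 764 in P7 scrambled livers, and 458 to 709 in P14 mimic livers, against 476 to 635 in P14 scrambled livers. Grb10 had 1452 to 1565 in P5 mimic livers, against 1345 to 1829 in P5 scrambled livers, 1567 to 1752 in P7 mimic livers, against 1512 to 1811 in P7 scrambled livers, and 768 to 941 in P14 mimic livers, against 845 to 947 in P14 scrambled livers. The overlap of these 3 genes held on each day.

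Meg3 was the member closest to a call. It had 136, 64 and 95 scaled counts in P14 mimic livers, against 39, 34 and 57 in P14 scrambled livers, so that every mimic liver lay above every scrambled one. The means were 98.3 ± 36.1 in mimic and 43.3 ± 12.1 in scrambled livers (SD, n = 3 each), and the log2 difference was 1.13 ± 0.28 (SE, adjusted p = 0.290), which ranks 29th of the 14104 genes. Over all alternative settings the difference was 0.87 to 1.41 and the adjusted p 0.0938 to 0.795. At P5 Meg3 had 406, 421 and 544 scaled counts in mimic livers, against 306, 571 and 438 in scrambled livers, and at P7 it had 267, 352 and 442 in mimic livers, against 434, 600 and 354 in scrambled livers. The differences were 0.09 ± 0.28 at P5 and -0.38 ± 0.28 at P7 (SE), and 0.28 ± 0.16 over the 3 days (SE).

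Dlk1 followed Meg3 over the 18 libraries with r = 0.961, a description that the days dominate. At P14 it had 75, 46 and 56 scaled counts in mimic livers, against 33, 32 and 71 in scrambled livers, with means of 59.0 ± 14.7 and 45.3 ± 22.2 (SD, n = 3 each) and a log2 difference of 0.44 ± 0.23 (SE, adjusted p = 0.946). Leaving out 1 library at a time moved it between 0.25, without scrambled 2, and 0.81, without scrambled 3. At P7 it had 318, 316 and 290 in mimic livers, against 356, 395 and 345 in scrambled livers, and the difference was -0.24 ± 0.23 (SE, adjusted p = 0.911). The groups overlapped at P14 and did not at P7. Rian at P14 had 140, 98 and 89 scaled counts in mimic livers, against 85, 89 and 85 in scrambled livers.

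Red cell precursor markers stood beside these values at P14, where the 8 summed to 1254, 1606 and 1131 scaled counts in mimic livers, against 637, 920 and 1082 in scrambled livers. Of the 8, 7 were higher with the mimic, with a median log2 difference of 1.03 and none passed. At P7 all 8 were higher, with a median of 0.09, and at P5 3 of 8 were. Markers of other blood cells were also mostly higher with the mimic at P14, none of them passing. These were 5 of 5 for neutrophil precursors (median 0.63) and 4 of 4 for B cells (0.71). For macrophages 6 of 6 were higher (0.06) and for megakaryocytes 3 of 4 (0.21). The part of any of these cells in the P14 values of Meg3 and Dlk1 was not tested.

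Peg3 had 861, 939 and 933 scaled counts in P14 mimic livers, against 1152, 995 and 1356 in P14 scrambled livers. The groups did not overlap, with means of 911 ± 43.4 and 1168 ± 181 (SD, n = 3 each), and the difference was -0.35 ± 0.14 (SE, adjusted p = 0.815). Fibroblast and stellate cell markers stood beside it, at 6810 to 9944 summed scaled counts in P14 mimic livers and 10593 to 11409 in P14 scrambled livers, with 10 of 10 lower, none of them passing and a median of -0.31. Hepatocyte markers were lower for 6 of 7 there, with a median of -0.23, and macrophage markers higher for 6 of 6. At P14 against P5 the same 10 fibroblast markers were all higher, with a median of 0.64, while Peg3 differed by -0.32. The part of any cell type in the Peg3 values was not tested. At P7 Peg3 had 1636, 1277 and 1684 in mimic livers, against 1354, 1713 and 1181 in scrambled livers, with overlapping groups and a difference of 0.12. Mest at P7 differed by -0.14 ± 0.10 (SE), with 790, 834 and 738 in mimic livers, against 766, 832 and 1029 in scrambled livers.

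Whether the mimic effect differed between days was tested for each pair of days and over the 3 days. No member passed. Of all genes 0% passed for P7 against P5 (0 of 14104, 864 unadjusted), 0.00709% for P14 against P7 and for P14 against P5, and 0.00709% over the 3 days together (917 at an unadjusted p under 0.05). For Meg3 the difference between the P14 and P7 effects was 1.51 (adjusted p = 0.328), for Dlk1 0.69 (adjusted p = 0.631) and for Peg3 -0.47 (adjusted p = 0.574), and the test over the 3 days gave an adjusted p of 0.481 for Meg3.

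Reads of overlapping genes limit a few members, because the strand setting of the authors' counting is not stated in these sources. Igf2os, antisense to Igf2, had a mean of 138 scaled counts. Copg2, antisense to Mest, had a mean of 381 scaled counts, and Airn, antisense to Igf2r, a mean of 12.4. Gm27483 and Gm27786, on the strand opposite H19, had means of 102 and 57.3. Gm44732, on the strand opposite Cdkn1c, had a mean of 27.7.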

How the data were processed

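RNA of 18 livers was made into stranded mRNA libraries, per the labels' protocols. The deposited values are scores, called scaled counts here. They are whole numbers that look like counts after division by a library factor and rounding, which the authors would have done; this reading comes from the values. Tools named in the submitters' processing notes are DESeq2 1.26.0, featureCounts 1.6.5, Picard 2.21.7, STAR 2.6.1d and Trimmomatic 0.39, on mm10. What Picard was used for is not stated in these sources. The worth of 1 read in each library was fitted from gaps among the low whole values, from 3 to 60, and estimated reads are the value divided by it.

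Genes with a mean of 10 or more (14104 of 31165) were fitted in R 4.3.3 by limma 3.58.1, on log2 of the value plus 1, with 1 mean for each of the 6 groups, a mean-variance trend, 12 residual degrees of freedom and 6.49 prior ones, and adjusted p-values over all tested genes. The threshold was 0.05. Such differences understate the change of low genes. The fit was tested on simulated data. Groups came from the sample titles. Correlations used values less their group mean, with 100000 permutations within groups. Transcript lengths, and the 3′ UTRs and transcripts searched for seed matches, came from GENCODE M21, and promoter and miRNA sequences from RefSeq. Python 3.11.15 with numpy 2.4.6, scipy 1.17.1 and pandas 2.3.3 did the rest. The text names all 10 members, up to 8 genes of each other list with the smallest P14 against P5 p-value, any list gene past the threshold in a mimic comparison, and the 3 genes most like each member. Members and lists were chosen with earlier results of these data known. Among list genes, only the muscle marker Ttn passed in a mimic comparison, lower with the mimic at P7 (1, 0 and 1 scaled counts with the mimic, 159, 14 and 301 with scrambled). Ttn averaged 1.48 scaled counts per kb in P7 scrambled livers. Genes silent in liver averaged 3.08 per kb in P7 scrambled 3, 0.168 in P7 scrambled 2 and 0.0198 in P7 scrambled 1. The Ttn values of P7 scrambled 2 and 3 are therefore not told apart from that background. Alternatives changed the scaling, filter, pseudocount, trend, length slope, block and libraries. A few items, among them 1 target site, are not reported here.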

Additional observations from a re-analysis of the deposited data

How the results depend on the processing

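Of 955 member values under the alternatives, 899 kept their direction and side of the threshold, 6 lost and 12 gained significance and 38 turned direction. Of the 16 called member differences, 11 held under every alternative and 0 turned direction. Except where a value's own setting shows otherwise, the cause was not tested. With quantile normalization 4 genes passed for the mimic at P7 and 5 members at P7 against P5 (Igf2r, Igf2 at -0.32, H19 at -0.24, Dlk1 at -0.40 and Mest at -0.25), and direction turned for Igf2 in the P14 mimic comparison (0.13) and between P14 and P7 (0.00016), and at P7 against P5 for Cdkn1c (-0.038) and Plagl1 (-0.016). The P7 mimic comparison gave 3 genes with no filter, 0 with a mean of 50 or more, 0 without the trend, 0 with the length slope and 7 from the libraries of that day alone. The P14 mimic comparison gave 5 genes with a pseudocount of 5, and the mimic over the 3 days 0 without the trend. With the length slope, P7 against P5 gave 1 gene and 0 members, with Igf2 at 0.19, H19 at 0.16, Meg3 at 0.14, Plagl1 at -0.47, Peg3 at -0.041 and Grb10 at -0.041, and P14 against P7 gave 3303 genes and 5 members, with H19 at -0.16; H19 at P14 against P5 was 0.00067. From the libraries of the days compared alone, 2 members passed at P7 against P5 and 5 genes in the P14 against P7 difference of the mimic effect. Without P7 scrambled 2 and 3, 19 genes passed for the mimic at P7, 12 over the 3 days, 12 in the test between days, 14 and 9 in the P7 against P5 and P14 against P7 differences of the mimic effect, 1470 at P7 against P5 and 4651 at P14 against P7, and Mest for the mimic at P7 (0.038), Igf2r over the 3 days (0.044) and, at P7 against P5, Cdkn1c (-0.052) and Plagl1 (-0.024) turned direction. The correlation of Igf2r and Igf2 was 0.071 without the 2 farthest libraries.

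Leaving out each library in turn gave, for the genes passing, 0 to 1 for the mimic at P5, 0 to 13 at P7, 3 to 16 at P14 and 0 to 4 over the 3 days, 1988 to 5072 at P7 against P5, and for the mimic effect differing 0 to 5 at P7 against P5, 1 to 13 at P14 against P7, 1 to 2 at P14 against P5 and 1 to 7 over the days together. Without P7 scrambled 1 the P7 mimic count was 13, and without P14 scrambled 3 the P14 count was 16. The members passing at P7 against P5 numbered 1 to 3, and those of the other comparisons kept their count. Member differences that turned direction ran from -0.043 to 0.092 for Cdkn1c, -0.087 to 0.037 for Igf2 and -0.092 to 0.12 for Plagl1 at P7 against P5, from -0.11 to 0.043 for H19 and -0.14 to 0.0071 for Igf2r at P14 against P5, from -0.14 to 0.31 for Meg3 at P5 and -0.0019 to 0.27 for Peg3 at P7 with the mimic, and from -0.069 to 0.027 for Igf2r with the mimic over the 3 days.

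Replicate numbers did not pair the livers: same-number correlations of deviations were -0.234, -0.054 and 0.244 at P5, -0.062, -0.094 and 0.067 at P7, and 0.090, 0.169 and -0.117 at P14. With the replicate block, 3 genes passed for the mimic at P7, 7 at P14 and 6 in the P14 against P7 difference of the mimic effect, and the count of members called changed in no comparison. Reads per library, 3006551 to 5322999, limit most the members with few reads at P14, Meg3 and Dlk1.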

Other observations

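Dio3, the thyroid hormone-inactivating enzyme at the far end of the chromosome 12 domain, was chosen after its values were seen. It had 22, 21 and 20 scaled counts in P14 mimic livers, against 31, 47 and 74 in P14 scrambled livers. The groups did not overlap. The log2 difference was -1.15 ± 0.32 (SE), with an adjusted p of 0.385 by limma, so it did not pass, and 9.31% of tested genes were separated in this way at P14. It was -0.51 at P5 and -0.01 at P7. Rtl1, between Dlk1 and Dio3, was listed at 0 in all 6 P14 livers and had 4 to 10 scaled counts in P5 livers. In P14 libraries 1 read was worth 0.9595 to 1.08 scaled counts, so that no read was counted there. A level too low to be sampled may remain.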
